A study of Mus musculus with 48 samples.

Results

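Gfap, the gene of the glial fibrillary acidic protein of astrocytes, and 6 other intermediate filament or filament-linker genes (Vim, Nes, Synm, Plec, Lmna and Lmnb1) were followed in polysomal RNA of mouse astrocytes. The 7 genes were taken by name, matched by symbol to the Ensembl gene IDs of the count files, and are 7 of the 47643 genes listed in each file. No measured value entered the choice of the 7, although earlier results of these data were known when they were chosen. Translating ribosome affinity purification pulls down ribosomes of a chosen cell type by a tagged ribosomal protein, together with the RNA they carry. All animals carried the transgene named Tg(Aldh1l1-eGFP/Rpl10a) JD130Htz, in which the Aldh1l1 promoter drives a fluorescent ribosomal protein, so any cell in which that promoter was active could contribute RNA. No other allele, treatment or age is given in the sources used here. The first group held RNA of whole astrocytes (Astro), and the second that of the fine branches at synapses, the perisynaptic astrocytic processes (PAP), both from the dorsal hippocampus of the same 3 animals. Each animal and compartment was sequenced as 8 technical replicates, 48 samples in all, and these were summed into 6 libraries, so that n = 3 per group throughout. The question was which ribosome-bound filament transcripts differ in abundance between the processes and the whole cell.

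Intermediate filaments are ropes of coiled-coil proteins that give a cell its mechanical strength. GFAP and vimentin copolymerise in the main branches of astrocytes, nestin and synemin join those filaments as partners that cannot form filaments alone, and plectin links filaments to actin, microtubules, membranes and the nucleus. Lamins A, C and B1 form the filament meshwork under the nuclear envelope, and a rise of GFAP and vimentin is the classic sign of a reactive astrocyte.

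The family shares a coiled-coil rod whose end is its most conserved stretch. The coding sequences of that stretch in Nes and Synm, the partners that join GFAP filaments, show how far members of the family resemble each other. They are read 5′ to 3′ from GENCODE M21 transcripts, 60 bases each, and capitals mark the 37 positions at which both have the same base.
Nes: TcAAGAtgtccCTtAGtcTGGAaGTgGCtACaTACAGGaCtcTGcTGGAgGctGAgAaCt
Synm: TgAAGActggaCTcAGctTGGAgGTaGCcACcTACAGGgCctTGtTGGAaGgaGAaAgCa
Over the whole coding sequences the longest stretch shared without a mismatch by Gfap and Vim was 20 bases, and the longest over all pairs of members other than Plec was 24 bases (Lmna and Lmnb1). No run of 50 bases of Gfap, Vim, Nes, Synm or Lmnb1 occurred on the same strand of another annotated transcript. Genes that overlap a member on the opposite strand are not covered by this and are given with that member. For Lmna 0.0338% of such runs were shared, and for Plec 0.868% (158 of 18199).

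The 6 libraries differed in depth in the same way as in compartment. Astro libraries held 18707844 to 20293538 counts and PAP libraries 1829962 to 2980984, a ratio of medians of 10.6, so depth and compartment cannot be told apart at full depth. Levels are given as CPM, counts scaled to a common total with TMM factors, and 3 counts, the limit that a count of 0 allows, correspond to 0.152 to 0.176 CPM in Astro and 0.991 to 1.55 CPM in PAP. The coefficient of variation over the 3 animals had a median of 22.1% in Astro and 97.0% in PAP over the 14618 genes tested. Over those genes the median log2 fold change of PAP against Astro was -0.53. The summed level of 16 astrocyte markers ran from 22085 to 31990 CPM in Astro and from 4344 to 14741 in PAP. In pooled tissue fewer cells or processes of a type and less RNA in each cannot be told apart, and nothing in the labels says whether the animals were handled on separate days.

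The most abundant member in every library was Gfap, and its level in each PAP library was below that in each Astro library. The gene (ENSMUSG00000020932) lies on the minus strand of chromosome 11 at 102887336 to 102900912 of GRCm38, with 4218 exonic bases. Its level was 10547, 6717 and 7675 CPM in the Astro libraries of animals 1, 2 and 3, and 919, 2849 and 4403 CPM in their PAP libraries. The groups did not overlap, and PAP was lower in 3 of 3 animals, with the largest gap in animal 1. In counts these were 196323, 114459 and 151181 in Astro and 1802, 5527 and 13325 in PAP, so counting error was small beside the spread between animals. Mean levels were 8313 ± 1993 CPM in Astro and 2724 ± 1745 CPM in PAP (SD, n = 3 each). The log2 fold change was -1.61 ± 0.55 (SE), which did not pass the threshold of 0.05 in edgeR's quasi-likelihood test (p = 0.0236, adjusted p = 0.0917 over all genes). With animal added as a block it was -1.81 ± 0.59 (SE; edgeR adjusted p = 0.206). The adjusted p was 0.0371 without the PAP library of animal 1 and 0.0400 without that of animal 3, against 0.309, 0.207 and 0.235 without the Astro libraries of animals 1, 2 and 3 and 0.148 without PAP of animal 2.

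Gfap was among the leading transcripts of the whole cell and of the processes alike. Ranked by counts it stood 4th, 7th and 3rd in the Astro libraries of animals 1, 2 and 3. In their PAP libraries it stood 107th, 14th and 11th. Its share of all counts was 0.967% (95% Wilson interval 0.963 to 0.972) in Astro of animal 1, the highest, and 0.0985% (0.0940 to 0.103) in PAP of the same animal, the lowest. The intervals cover counting error only. An overlapping transcript on the opposite strand, Gm26668, shares no exon with Gfap and had at most 52 counts in any library.

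Vim, the gene of vimentin (ENSMUSG00000026728; chromosome 2, 13573927 to 13582826, plus strand, 4743 exonic bases), was far below Gfap in both compartments. It gave 2062, 1428 and 1811 counts in Astro of animals 1, 2 and 3, which are 111, 83.8 and 91.9 CPM. The PAP libraries gave 75, 3 and 185 counts, or 38.3, 1.55 and 61.1 CPM. Each PAP value was below each Astro value, and PAP of animal 2 stood at the limit of detection. The means were 95.5 ± 13.8 CPM (SD, n = 3) and 33.6 ± 30.1 CPM (SD, n = 3). The log2 fold change of -1.50 ± 1.10 (SE) did not pass the threshold in edgeR (adjusted p = 0.447, and 0.367 with the animal as a block).

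Among the partners that join GFAP and vimentin filaments, Nes was the one whose PAP values all lay above its Astro values. Nestin, its product, is known from neural stem and progenitor cells, and the gene (ENSMUSG00000004891) lies on chromosome 3 at 87971078 to 87980451, plus strand, with 6416 exonic bases. Astro libraries gave 30, 1 and 68 counts for animals 1, 2 and 3, or 1.61, 0.0587 and 3.45 CPM. Although their totals were far smaller, the PAP libraries gave 252, 19 and 179 counts, or 129, 9.79 and 59.1 CPM. Animal 2 was the lowest in both compartments, and PAP was higher in 3 of 3 animals. The log2 fold change was 5.26 ± 1.69 (SE), with p = 0.0189 and an adjusted p of 0.0773 in edgeR, and 5.78 ± 1.54 (SE) with an adjusted p of 0.206 with the animal as a block. With every library thinned to 1829962 counts, Astro held 1, 0 and 3 Nes counts and PAP 252, 19 and 109, and the edgeR adjusted p was then 0.0402. At equal depth and at full depth, Nes would not have passed the filter on low counts without the PAP libraries, where it is high. Its p-values therefore give no support of their own. Over all alternatives tried the adjusted p ran from 0.000411 to 0.285.

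Among 11 markers of neural stem and progenitor cells, 9 were tested, Top2a rose and Sox2 and Prom1 fell, beside 5.92% higher and 15.4% lower over all tested genes. With animal as a block none of these 3 passed (edgeR adjusted p of 0.151, 0.0659 and 0.206). Top2a, an enzyme of dividing cells, gave 7, 14 and 4 counts in Astro and 198, 99 and 202 in PAP (edgeR adjusted p = 0.0165), and it passed the filter on low counts through the PAP libraries alone. Dcx, of young neurons, and Mki67, of dividing cells, were highest in PAP of animal 1, the library highest for Nes, with 209 and 64 counts there. Dcx gave at most 2 counts in any other library and Mki67 at most 22. Prom1 was at 0 counts in every PAP library, and the list's summed level was 2158 to 3041 CPM in Astro and 401 to 1224 CPM in PAP. Hopx alone gave 1810 to 2647 CPM of this in Astro and 151 to 1066 CPM in PAP. Sox2 gave 192 to 288 and 6.12 to 13.5 CPM. The sum therefore says little of the other genes of the list. The 8 endothelial markers, of another cell type in which nestin is known, summed to 4.35 to 11.3 CPM in Astro and 1.53 to 12.4 CPM in PAP. Cldn5, Cdh5, Esam and Slco1a4 were at 0 in every PAP library, while Tek gave at most 1 count in Astro and 0, 22 and 1 in PAP. The part of such cells in the Nes values was not tested.

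Synm, the gene of synemin (ENSMUSG00000030554; chromosome 7, 67730160 to 67759742, minus strand, 7933 exonic bases), was steady in Astro and uneven in PAP. Its counts were 64, 81 and 100 in Astro of animals 1, 2 and 3, or 3.44, 4.75 and 5.08 CPM. In PAP they were 0, 8 and 317, or 0, 4.12 and 105 CPM. Animal 3 alone was above the Astro range, animal 2 lay within it and animal 1 was below it, so the groups overlapped. The log2 fold change of 3.04 ± 2.01 (SE) did not pass the threshold in edgeR (adjusted p = 0.393), and it turned to -1.17 without PAP of animal 3 and to -0.035 with the animal as a block. Exons of Synm overlap those of Ttc23 on the opposite strand, and the strand setting of the counting is not given in the sources used here. Ttc23 gave 447, 554 and 783 counts in Astro and 0, 0 and 4 in PAP, and Gm45102, which also overlaps Synm exons on that strand, gave 4, 7 and 13 in Astro and 0, 0 and 9 in PAP. Both had their only PAP counts in animal 3, where Synm was highest, and the part of shared reads in these values was not tested. That library also had the highest summed level of 5 fibroblast markers, 126 CPM against 1.53 to 34.0 CPM in the other 5 libraries. The sum there came from Col1a2 (78.6 CPM) and Dcn (46.9 CPM), while Col1a1 and Lum were at 0 and Col3a1 at 1 count. The part of fibroblasts in the Synm value was not tested.

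**Figure D1:**
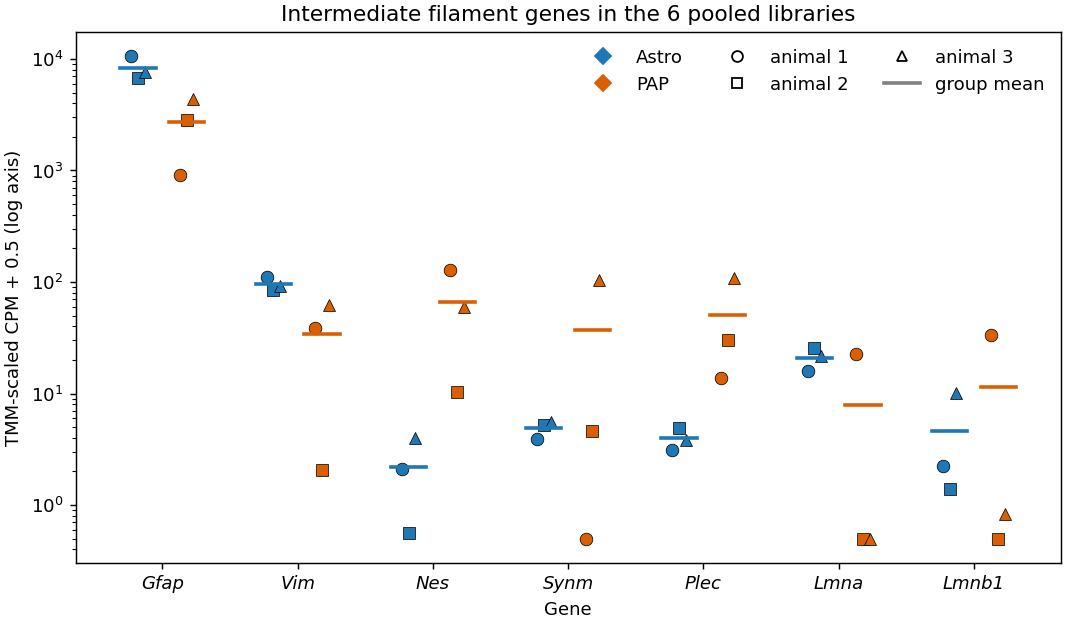
TMM-scaled CPM + 0.5 (log axis) of the 7 genes in the 6 libraries, with Astro and PAP in separate colours, a marker shape for each animal and a bar at each group mean. Gfap and Vim lie lower in each PAP library than in any Astro library, Nes and Plec lie higher, and Synm, Lmna and Lmnb1 overlap.

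Plec, the gene of the cytolinker plectin, was the member that rose in the processes. It lies on the minus strand of chromosome 15 at 76170974 to 76232574 (ENSMUSG00000022565) and has 18113 exonic bases, the longest of the 7. Astro libraries gave 49, 75 and 66 counts for animals 1, 2 and 3, or 2.63, 4.40 and 3.35 CPM, and PAP libraries 26, 58 and 328 counts, or 13.3, 29.9 and 108 CPM. The groups did not overlap, PAP was higher in 3 of 3 animals, and animal 3 was the highest of the PAP libraries. PAP of animal 3 also had the highest fibroblast marker sum, carried by Col1a2 and Dcn as given for Synm. Without that library the log2 fold change of Plec was 2.57 (edgeR adjusted p = 0.0422). The means were 3.46 ± 0.89 CPM in Astro and 50.5 ± 50.8 CPM in PAP (SD, n = 3 each). The log2 fold change was 3.86 ± 1.07 (SE), with p = 0.0101 and an adjusted p of 0.0482 in edgeR. This call lay close to the threshold and was lost without any single Astro library (adjusted p of 0.242, 0.197 and 0.217 without animals 1, 2 and 3) and with the animal as a block (3.33 ± 1.49 SE, adjusted p = 0.248). Thinned to equal totals, Astro held 7, 4 and 6 Plec counts and PAP 26, 58 and 195, with an edgeR adjusted p of 0.0583. At equal depth Plec passed the filter on low counts through the PAP libraries alone, where it is high. That value gives no added support. Exons of Plec overlap those of Parp10 on the same strand, which gave 38, 0 and 56 counts in Astro and 0 in every PAP library.

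**Figure D2:**
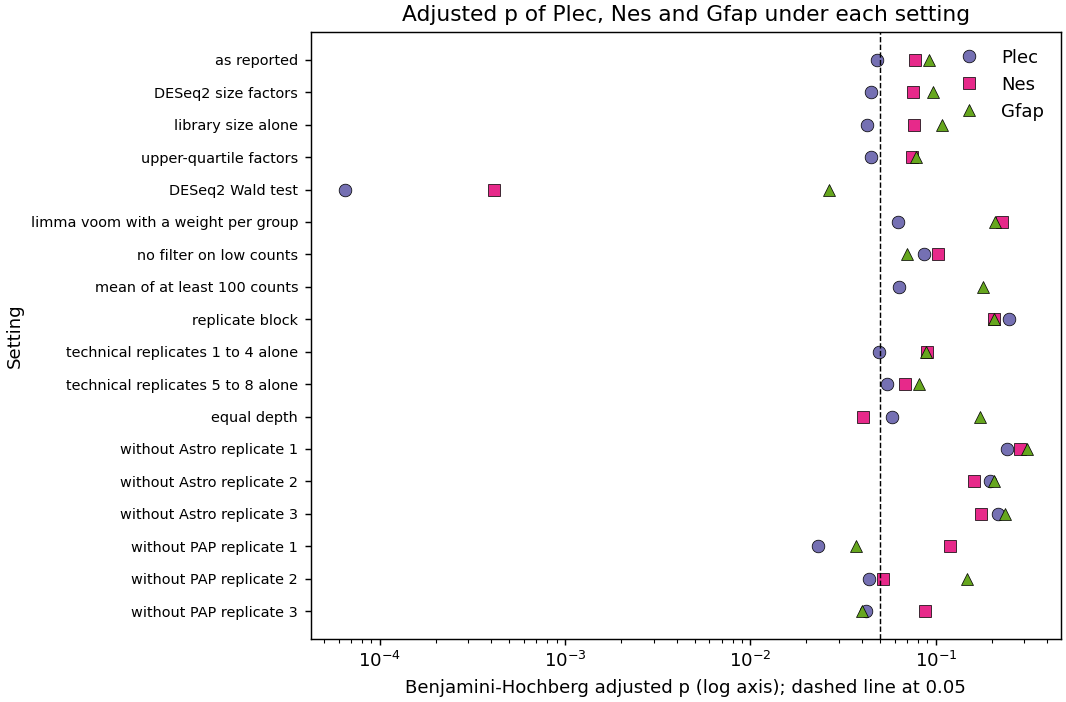
Benjamini-Hochberg adjusted p (log axis) of Plec, Nes and Gfap as reported and under each alternative, with a dashed line at 0.05. Plec lies just left of the line as reported, at 0.0482, and right of it at 0.248 with the animal as a block, while Nes at 0.0773 and Gfap at 0.0917 lie just right of it as reported.

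Macf1 and Dst, plakin relatives of plectin that tie parts of the cytoskeleton together, were higher in PAP as well. Of 6 cytolinkers listed, 5 had an ID in the files and 3 had enough counts to be tested; 2 of these rose and none fell, beside 5.92% higher over all tested genes, with a median log2 fold change of 2.83. Macf1, which links microtubules to actin, was at 6.93, 11.4 and 8.63 CPM in Astro and 126, 188 and 306 CPM in PAP of animals 1, 2 and 3. Macf1 rose by 4.52 ± 0.56 (SE) on the log2 scale (edgeR adjusted p = 0.0113, or 0.0741 in the block fit). Dst, the gene of dystonin, was at 10.1, 6.10 and 15.8 CPM in Astro and 66.3, 112 and 49.6 CPM in PAP. Dst rose by 2.83 ± 0.72 (SE) on the log2 scale (edgeR adjusted p = 0.0365, or 0.219 in the block fit). For both genes every PAP library was above every Astro library. Plec, Macf1 and Dst are all long, with 18113, 31402 and 41155 exonic bases. Among all tested genes with at least 10000 exonic bases, 1319 in number, 5.99% were higher in PAP and 9.40% lower, close to the 5.92% of all genes for those higher. The shares higher and lower were 11.6% and 16.1% under 2000 bases, 4.19% and 17.9% at 2000 to 5000, and 4.61% and 13.3% at 5000 to 10000, and the part of length in these 3 genes was not tested.

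The lamin genes showed no difference that held over the animals. Lmna, the gene of lamins A and C (ENSMUSG00000028063; chromosome 3, 88480147 to 88509956, minus strand, 5838 exonic bases), gave 284, 425 and 418 counts in Astro of animals 1, 2 and 3, or 15.3, 24.9 and 21.2 CPM. In PAP it gave 43, 0 and 0 counts, so that animal 1, at 21.9 CPM, lay within the Astro range and the other two were below detection. Fitted over all 6 libraries it was -1.49 ± 2.03 (SE) on the log2 scale (edgeR adjusted p = 0.711). It was -10.95 with an adjusted p of 0.0217 without PAP of animal 1, a value set against 2 libraries at 0. Lmnb1, the gene of lamin B1 (ENSMUSG00000024590; chromosome 18, 56707813 to 56753424, plus strand, 2962 exonic bases), gave 32, 15 and 191 counts in Astro and 64, 0 and 1 in PAP. In CPM these were 1.72, 0.880 and 9.70 in Astro and 32.7, 0 and 0.330 in PAP, with the highest value in PAP of animal 1, as for Lmna. Its fitted log2 fold change was 1.42 ± 2.05 (SE; edgeR adjusted p = 0.728), and it turned to -4.38 without PAP of animal 1 and to -2.14 with the animal as a block.

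Of 16 further genes of the nuclear lamina and of the complex that joins it to the cytoskeleton, all were tested, 1 rose and none fell in PAP, near the 5.92% of all tested genes that were higher. They had a median log2 fold change of -0.27 (-0.13 with genes below detection in PAP set at their bound). The gene that rose was Banf1, which encodes a small protein that binds DNA and lamin partners. It was at 112 ± 5.02 CPM in Astro and 246 ± 37.8 CPM in PAP (SD, n = 3 each). This was a rise of 1.13 ± 0.30 (SE) on the log2 scale (edgeR adjusted p = 0.0403, or 0.226 in the block fit). Tor1aip1, a lamina-binding membrane protein gene and the other abundant one, was at 135 ± 8.77 CPM in Astro and 103 ± 113 CPM in PAP (SD, n = 3 each), with an adjusted p of 0.856.

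**Figure D3:**
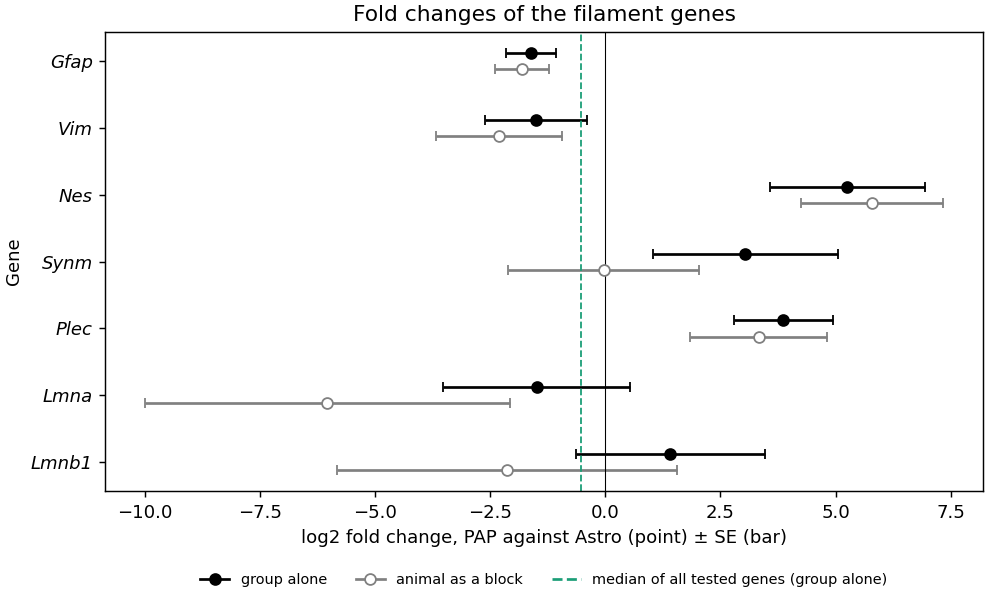
Log2 fold change of PAP against Astro with its standard error for each of the 7 genes, from edgeR fits with the group alone and with the animal as a block; the dashed line is the median of all tested genes, -0.53. Plec and Nes lie to the right of 0 in both fits and Gfap and Vim to the left, while Synm and Lmnb1 lie on opposite sides of 0 in the fits.

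All 7 members had enough counts to be tested. Of these, 1 (Plec, higher) passed an adjusted p of 0.05 in edgeR, beside 21.3% of the 14618 genes tested, with 5.92% called higher and 15.4% called lower. No member passed once the animal was a block, beside 0.910% of all tested genes, and 2 members (Gfap and Nes) had an unadjusted p under 0.05, as did 23.3% of all tested genes. Without the block 3 members (Plec, Nes and Gfap) had an unadjusted p under 0.05, and 30.9% of all tested genes did. Nes, counted with and without the block, would not have passed the filter on low counts without the PAP libraries, where it is high. Groups did not overlap for 4 of the 7 members, beside 46.0% of all tested genes, and that share of members is read as no more than the share among genes at large. The members' median log2 fold change was 1.42, against -0.53 over all tested genes, and it turned to -1.81 against -1.63 with the block, so the members' median did not stay apart from that of all genes. DESeq2 passed 3 members, beside 35.2% of all tested genes, and limma voom none, beside 24.1%.

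Gfap was the leading member by length-scaled level in both compartments. Per kilobase of exon, mean Astro levels were 1971 CPM for Gfap, 20.1 for Vim, 3.51 for Lmna, 1.38 for Lmnb1, 0.558 for Synm, 0.266 for Nes and 0.191 for Plec. In PAP the means per kilobase were 646 CPM for Gfap, 10.3 for Nes, 7.09 for Vim, 4.57 for Synm, 3.71 for Lmnb1, 2.79 for Plec and 1.25 for Lmna. In both compartments the lowest Gfap library was far above the highest library of any other member. In Astro, Vim lay apart from Gfap above it and Lmna below it, and each later gene in the order overlapped its neighbour. In PAP the 6 other members overlapped one another, with coefficients of variation of up to 173%, so their order there is not resolved. Gfap made up 98.7%, 98.3% and 98.3% of the members' summed CPM in Astro and 79.7%, 98.4% and 93.0% in PAP, with PAP of animal 1 the lowest. Without Gfap the members summed to 135, 119 and 135 CPM in Astro and 235, 45.4 and 334 CPM in PAP.

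Ratios within a library, which no scaling of libraries changes, set Gfap beside its partner Vim and beside astrocyte genes. There were 95.2, 80.2 and 83.5 Gfap counts for each Vim count in Astro of animals 1, 2 and 3, a narrow range. In PAP there were 24.0, 1842 and 72.0, and the middle value rests on 3 Vim counts. On the log2 scale the ratio was 6.43 ± 0.13 in Astro and 7.12 ± 3.14 in PAP (SD, n = 3 each), with p = 1 in a two-sided exact permutation test.

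Against Aldh1l1, whose promoter drives the tag, there were 45.5, 30.0 and 30.7 Gfap counts for each count in Astro, and 18.4, 34.1 and 39.9 in PAP. PAP was lower in animal 1 and higher in animals 2 and 3, with a log2 difference of -0.25 (exact permutation p = 0.6). Against Slc1a3, the gene of the glutamate transporter GLAST, the ratios were 2.66, 1.88 and 3.89 in Astro and 1.02, 2.76 and 3.23 in PAP, a log2 difference of -0.37 (exact permutation p = 0.7). The log2 ratio of Vim to Aldh1l1 was -1.31 ± 0.21 in Astro and -2.26 ± 2.85 in PAP (SD, n = 3 each) (exact permutation p = 1). None of the 4 ratios differed by more than the spread between animals: adjusted p was 1 for each, and with 20 relabellings of 6 libraries the smallest p possible is 0.1. This test leaves out the pairing by animal. A sign-flip test within animals, whose smallest p possible is 0.25, gave 0.75 for Gfap to Slc1a3 and no lower value for the others. With so few animals these p-values do not show that the proportions were alike.

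**Figure D4:**
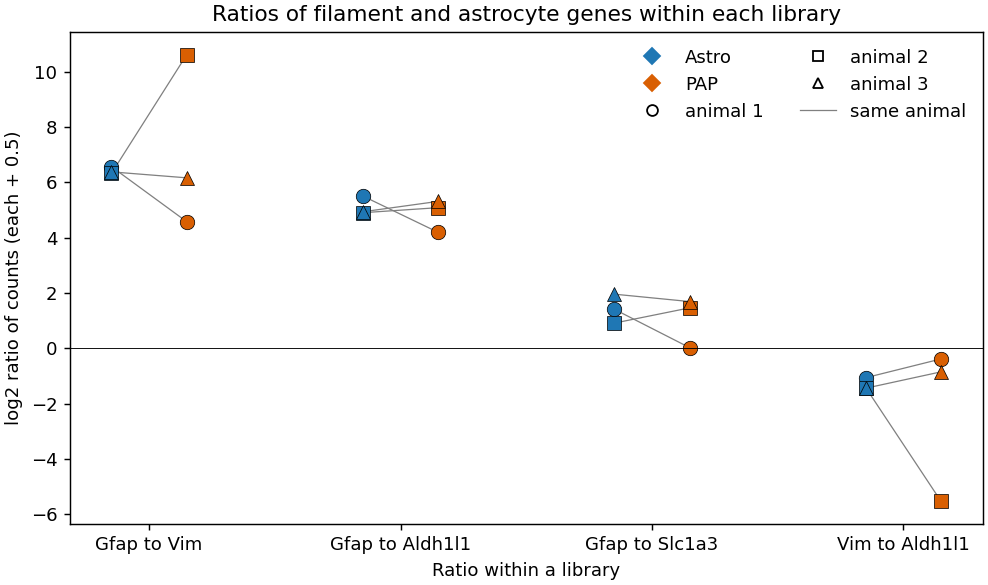
Log2 ratio of counts (each + 0.5) of Gfap to Vim, Gfap to Aldh1l1, Gfap to Slc1a3 and Vim to Aldh1l1 in each library, with grey lines joining the libraries of an animal. Astro and PAP values overlap in all 4 ratios, and the widest spread, 3.14 (SD), is that of Gfap to Vim in PAP.

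Among the receptors, kinases and transcription factors known to act on the Gfap gene, Sox9, Jak1 and Jak2 were lower in PAP. Of 22 listed, 20 were tested, 3 fell and none rose, with a median log2 fold change of -1.02 beside -0.53 for all tested genes. That is near the 15.4% of all tested genes that were lower, so the count is no result about these genes as a group. Sox9, a transcription factor that activates Gfap in astrocytes and is itself an astrocyte marker, was at 373 ± 73.9 CPM in Astro and 72.7 ± 25.2 CPM in PAP (SD, n = 3 each). It fell by 2.36 ± 0.40 (SE) on the log2 scale, with an edgeR adjusted p of 0.0208. Jak1 and Jak2 encode kinases that pass cytokine signals to STAT3. Jak1 was at 208 ± 37.5 CPM in Astro and 49.4 ± 20.2 CPM in PAP (SD, n = 3 each), a fall of 2.07 ± 0.45 (SE) on the log2 scale (edgeR adjusted p = 0.0222). Jak2 gave 2129, 1059 and 1669 counts in Astro and 0, 5 and 8 in PAP, with an edgeR adjusted p of 0.0250. In the block fit none of these 3 genes passed (edgeR adjusted p of 0.121 for Sox9 and 0.206 for Jak1 and Jak2).

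Genes that fold, modify or degrade filament proteins moved both ways. All 18 listed were tested, of which 2 rose and 3 fell, beside 5.92% higher and 15.4% lower over all tested genes, with a median log2 fold change of -0.74. Of those that rose, Plk1, a kinase of dividing cells that phosphorylates vimentin, gave 6, 2 and 21 counts in Astro and 99, 88 and 105 in PAP (edgeR adjusted p = 0.0208). Plk1 would not have passed the filter on low counts without the PAP libraries, where it is high. Its edgeR adjusted p in the block fit was 0.206.

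Capn2, a calpain protease subunit, fell by 2.03 ± 0.41 (SE) on the log2 scale, from 452 ± 85.8 to 111 ± 43.0 CPM (SD, n = 3 each; edgeR adjusted p = 0.0208). Sqstm1, the autophagy receptor p62, fell by 1.65 ± 0.38 (SE), from 521 ± 165 to 166 ± 51.1 CPM (SD, n = 3 each; edgeR adjusted p = 0.0257). With the animal as a block neither Capn2 nor Sqstm1 passed (edgeR adjusted p of 0.206 for each). The small heat shock gene Hspb1 gave 61, 85 and 114 counts in Astro and 0 in every PAP library, at least 3.45-fold lower against the floor of 3 counts per library. Cryab, the alpha-B crystallin that binds GFAP filaments, was at 497 ± 65.4 CPM in Astro and 285 ± 214 CPM in PAP (SD, n = 3 each), with an edgeR adjusted p of 0.557.

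**Figure D5:**
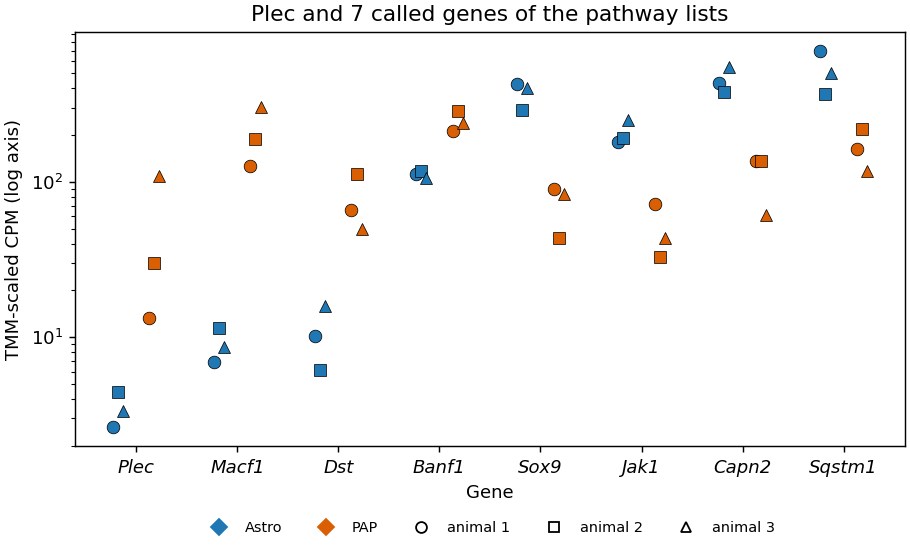
TMM-scaled CPM (log axis) of Plec, its plakin relatives Macf1 and Dst, and 5 other genes of the pathway lists in each library, by compartment and animal. Plec, Macf1, Dst and Banf1 are higher in every PAP library than in any Astro library, and Sox9, Jak1, Capn2 and Sqstm1 are lower.

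Most calls among markers of reactive astrocytes other than Gfap and Vim were of genes below detection in PAP. Of 32 listed, 25 were tested, 9 fell and 1 rose, beside 15.4% lower and 5.92% higher over all tested genes, and 13 of the 32 had 0 counts in every PAP library. All 9 that fell had at most 3 counts in each PAP library and passed the filter through the deeper Astro libraries. Against 10 genes of the list called as reported, 2 were called at equal depth, where 15.1% of all tested genes were. With a mean of at least 100 counts 3 were called, where 14.0% of all tested genes were. These are counts made anew under each setting. The list's summed level overlapped, at 347.6 to 546.7 CPM in Astro and 378 to 466 CPM in PAP. The median log2 fold change was -0.46, or -0.37 with undetected genes set at their bound. Serping1, which encodes an inhibitor of complement, was at 13.8 ± 3.79 CPM (SD, n = 3) in Astro and at least 10.1-fold lower in PAP. Against the same floor Tm4sf1 was at least 7.83-fold lower, Iigp1 at least 2.79-fold and Ptx3 at least 2.19-fold, all with 0 counts in every PAP library. The gene that rose was H2-T23, an MHC class I gene named here after its values were seen, at 5.82 ± 2.48 CPM in Astro and 52.3 ± 12.6 CPM in PAP (SD, n = 3 each). Genes of this family resemble each other, so reads may have been split among them. Cd44 and Cp, also named after their values were seen, were higher in every PAP library than in any Astro library, at 1.68 to 8.43 against 32.1 to 67.5 CPM for Cd44 and 2.36 to 3.40 against 10.7 to 22.7 CPM for Cp, but did not pass (edgeR adjusted p of 0.0559 and 0.0880). The most abundant markers, S100a10 and H2-D1, did not pass the threshold (edgeR adjusted p of 0.514 and 0.744), with 157 ± 5.49 against 46.4 ± 45.9 CPM for S100a10 and 75.8 ± 33.9 against 55.7 ± 30.9 CPM for H2-D1 (SD, n = 3).

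Other filament genes summed to 184 to 348 CPM in Astro and 146 to 335 CPM in PAP. They were those of neurofilaments, keratins, desmin, peripherin and lens filaments, with Sync and the further lamin gene Lmnb2. Of 19 listed, 12 were tested, 1 fell and none rose, beside 15.4% lower and 5.92% higher over all tested genes, with a median log2 fold change of -0.77, or -0.53 with undetected genes set at their bound. Des, Prph, Bfsp1, Krt12 and Krt19 were at 0 counts in all PAP libraries. Krt12, the gene called, gave 24, 21 and 20 counts in Astro, a level under what 3 counts are worth in the mean PAP library, so no fold is given. Nefl, the light neurofilament gene of neurons, gave 848, 1352 and 2374 counts in Astro and 7, 258 and 0 in PAP (edgeR adjusted p = 0.830). Krt10 was at 63.4 ± 12.3 CPM in Astro and 24.2 ± 23.5 CPM in PAP (SD, n = 3 each) (edgeR adjusted p = 0.518).

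Over the 6 lists 94 of 113 genes were tested, 6 rose and 16 fell, a share near the 21.3% of all tested genes that were called, and 11 of the 16 that fell had at most 3 counts in every PAP library. None of them passed when any single Astro library was left out. With animal as a block none of the 94 passed in edgeR, and 24 had an unadjusted p under 0.05, a share near the 23.3% of all tested genes. DESeq2 passed 33 and limma voom 17, beside the same 35.2% and 24.1% of all tested genes. The lists were drawn up with earlier results of these data known, and no statement about a list as a whole was tested.

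Markers of other cells were present in both compartments. Those of neurons and oligodendrocytes, summed over each list, lay above every single member but Gfap. Neuronal markers (13) summed to 1095 to 1705 CPM in Astro and 556 to 1426 CPM in PAP, and oligodendrocyte-lineage markers (9) to 1044 to 1088 and 476 to 1061 CPM. Of the neuronal ones, the synaptic vesicle gene Syt1 rose in PAP (67.1 to 113 CPM in Astro, 177 to 277 in PAP, edgeR adjusted p = 0.0414, or 0.206 in the block fit), and Snap25 fell (0.0296, or 0.127 in the block fit). Prox1 gave 165, 249 and 511 counts in Astro and was below detection in PAP, with 0 counts in every library. Microglial markers (8), from cells that carry vimentin, summed to 23.2 to 51.9 CPM in Astro and 21.5 to 31.1 CPM in PAP, with 5 of the 8 at 0 in every PAP library. C1qb, however, was at 6.70 to 9.51 CPM in Astro and 26.0, 29.9 and 0 CPM in PAP, and C1qa reached 16.5 CPM in PAP of animal 3. Mural cell markers (9), from cells that can carry vimentin and synemin, summed to 26.5 to 49.0 CPM in Astro and 5.10 to 28.1 CPM in PAP, with Pdgfrb, Rgs5 and Anpep at 0 in every PAP library and Kcnj8 at 0 in all 6 libraries. Tagln, at 23.7 CPM in PAP of animal 2, and Vtn, at 28.1 CPM in PAP of animal 3, lay above their Astro values there. The part of these cells in the filament genes was not tested.

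The genes whose pattern over the 6 libraries was most like that of Gfap included Arl8b, Sat1, Tagln3 and Slc25a11, at ranks 2 to 5. Their Pearson correlations with Gfap, on log2(CPM + 0.5) and among 4894 genes with at least 10 counts in each library, were 0.995, 0.995, 0.994 and 0.992. The 6 points share their libraries, and they include the difference between compartments, so these values describe likeness only. The astrocyte markers that could be ranked ran from Aldoc at rank 11 (0.990) to Sox9 at rank 1093 (0.73), with Aldh1l1 at rank 187 (0.957) and Slc1a3 at rank 671 (0.851). Among the members, Plec could be ranked, at 3188 with -0.46, and the others had fewer than 10 counts in at least 1 library.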

How the data were processed

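Polysomal RNA was amplified with the SMART-Seq v4 kit and made into libraries with Nextera XT, per the labels' protocols. The deposited values are raw counts per Ensembl gene, and the authors applied no scaling, since the values are whole numbers with differing totals. Per the submitters' processing notes, bcl2fastq 2.18.0.12, Trim Galore 0.4.1, STAR 2.5.2b, SAMtools and HTSeq 0.5.3 were used with the mm10 build. Annotation release, strand setting and parameters are not given in the sources used here. No molecular identifiers are mentioned, so counts may include amplification copies.

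Symbols, 1-based positions and exonic lengths were read from the GENCODE M21 annotation of GRCm38, which holds 47224 of the 47643 IDs. The ID of Eppk1 was not matched and the gene is not analysed here. The 8 technical replicates were summed. Genes passing filterByExpr (minimum count 10) were scaled by TMM factors and tested in edgeR 4.0.16 (R 4.3.3) with the quasi-likelihood test with group as the single term; p was adjusted over all genes (Benjamini-Hochberg, threshold 0.05), and SE is the size of the log2 fold change divided by the root of F. Where all libraries of a group had 3 counts or fewer, a fold is given as a bound. Ratios used counts + 0.5. Samples are paired, because libraries with the same number come from the same animal in the labels; correlations of same-animal deviations from the group means were 0.0331, 0.0181 and -0.0303. The fits were tested on simulated data.

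Named genes are the 7 members; in each of 6 pathway lists the called genes (all if 5 or fewer, otherwise the 4 with the largest fold change) and the 2 most abundant in Astro; and the 5 genes most like Gfap. Cell type markers named singly were picked after their values were seen. Some genes and sequences chosen in this way are not reported here. The members and lists were chosen with earlier results of these data known. Alternatives were 3 other scalings, DESeq2 1.42.0, limma 3.58.1 voom with weights per group, 2 other filters, the animal as a block, each group of technical replicates, thinning to equal totals and leaving out each library.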

Additional observations from a re-analysis of the deposited data

How the results depend on the processing

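Library size, RLE and upper-quartile scaling left the Plec call in place (adjusted p of 0.0424 to 0.0448), and Gfap, Vim and Lmna stayed lower and Nes and Plec higher in PAP under every alternative that could be fitted. Of all genes, 3115 were called as reported, 5141 by DESeq2, 1414 with a mean of at least 100 counts, 133 with the replicate block, 1688 at equal depth, and 115 to 4586 when 1 library was left out. Of the 7 members, 1 was called as reported, 3 by DESeq2 and 0 by voom, without a filter, with a mean of at least 100 counts, with the replicate block and in technical replicates 5 to 8; leaving out 1 library gave 0 to 3, with 0 without any Astro library. Over the 6 lists 22 genes were called as reported. Counted anew under each alternative, 33 were called by DESeq2, 14 without a filter and 12 with a mean of at least 100 counts. The number was 0 with the replicate block, 11 at equal depth and 0 to 30 when 1 library was left out, again 0 without any Astro library. Plec was 3.49 (adjusted p = 0.0627) by voom, 3.70 (0.0862) without a filter, 4.02 (0.0634) with a mean of at least 100 counts, 3.33 (0.248) with the replicate block, 3.87 (0.0543) in technical replicates 5 to 8, 4.07 (0.0583) at equal depth and 2.57 to 4.27 with 1 library left out. By DESeq2, Gfap was -1.55 (0.0266) and Nes 5.32 (0.000411), and Nes was 6.54 (0.0402) at equal depth. At equal depth Plec and Nes passed the filter on low counts through the PAP libraries alone. Neither Gfap nor Nes passed by voom (0.209 and 0.228) or without a filter (0.0699 and 0.102). Without any single Astro library they did not pass either (0.207 to 0.309 and 0.161 to 0.285). Gfap did not pass at equal depth (0.174) or with a mean of at least 100 counts (0.179). With 1 library left out Gfap was -2.21 to -1.24, Nes 4.27 to 6.30 and Lmna -10.95 to -0.96. The sign turned for Synm by voom (-0.088), with the replicate block (-0.035) and with 1 library left out (-1.17 to 3.57), and for Lmnb1 by voom (-0.53), with the replicate block (-2.14) and with 1 library left out (-4.38 to 1.93). It also turned with 1 library left out for Tor1aip1 (-1.81 to 0.11) and for the log2 ratios of Gfap to Vim (-1.05 to 1.97), Gfap to Aldh1l1 (-0.48 to 0.084), Gfap to Slc1a3 (-0.68 to 0.15) and Vim to Aldh1l1 (-1.88 to 0.69). The cause of these shifts was not tested. Some alternatives left Lmnb1, Nes or Synm with too few counts to be tested. PAP depth limits detection to 0.991 to 1.55 CPM.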

Other observations

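Within every library the level of Gfap was lower in technical replicates 5 to 8 than in 1 to 4. In CPM of the plain library total, without TMM factors, it was 9946 in replicates 1 to 4 and 9362 in 5 to 8 for Astro of animal 1, and 1014 and 952 for PAP of animal 1. The pairs were 6283 and 5924 for Astro and 3054 and 2970 for PAP of animal 2, and 7946 and 7519 for Astro and 4644 and 4269 for PAP of animal 3. These shifts are small beside the difference between compartments.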
